A study of Mus musculus with 2 samples.

Results

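Interferon-high neutrophils were mouse spleen cells that carried calprotectin RNA together with RNA of type I interferon response genes. They numbered 265 of 13258 cells: 223 of 6748 in the high-B12 library and 42 of 6510 in the low-B12 library. A cell was a member when it met 3 conditions on its unique molecular identifiers (UMIs, counted RNA molecules). S100a8 and S100a9, which encode the calprotectin subunits of neutrophils, held at least 5% of its UMIs. Camp, Ngp and Ltf, which encode secondary granule proteins and are transcribed before a neutrophil matures, together held under 1%. Rsad2, Ifit1, Ifit3, Isg15 and Slfn4 together had at least 5 UMIs. These measured values chose the members, so the gating genes, and every other gene set against the remaining calprotectin-high cells, are given as a description with no test.

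The data were 10x 3′ single-cell RNA libraries of spleen cells kept viably frozen and sorted on CD45.2, CD11b and DAPI, 1 library labelled High B12 and 1 labelled Low B12. CD45.2 marks leukocytes of one congenic type and CD11b is an integrin subunit of myeloid cells. The title of the series places the comparison in Tet2-deficient blood formation, but genotype, B12 dose, treatment time, age, sex and the number of mice pooled are not in the labels of either library. With 1 library per condition there was no test between conditions, and the B12 label and the library cannot be told apart. Intervals are 95% ones for counting error alone.

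Type I interferons bind the receptor encoded by Ifnar1 and Ifnar2, which signals through JAK kinases to a transcription factor complex that includes STAT2 and IRF9. That complex binds the interferon-stimulated response element in the promoters of target genes. The products act against viruses (Rsad2, the Ifit and Oas families), tag proteins (Isg15) or amplify and limit the response (Irf7, Usp18), and neutrophils are able to mount this response in blood and tissue.

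The promoters of the gating genes and of Oasl1, a neutrophil-expressed Oas-like gene that the gate did not use, are shown because the cells were chosen by these genes. They come from RefSeq for GRCm38.p6 and run 5′ to 3′ over the 170 bases before the start, with matches to a core form of the response element in capitals. The motif searched was GAAA, NN and GAAA in a row, with N any base, on both strands (TTTC, NN and TTTC on the strand printed).

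Rsad2, chr12:26456453-26456622, minus strand: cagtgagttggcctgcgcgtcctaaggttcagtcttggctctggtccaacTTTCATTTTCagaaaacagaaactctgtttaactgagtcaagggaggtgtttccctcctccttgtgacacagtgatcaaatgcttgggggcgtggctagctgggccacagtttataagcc
Ifit1, chr19:34640719-34640888, plus strand: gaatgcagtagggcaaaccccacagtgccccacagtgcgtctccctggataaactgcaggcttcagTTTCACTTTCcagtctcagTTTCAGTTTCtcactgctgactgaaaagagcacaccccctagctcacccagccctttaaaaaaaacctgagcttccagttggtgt
Ifit3, chr19:34583359-34583528, plus strand: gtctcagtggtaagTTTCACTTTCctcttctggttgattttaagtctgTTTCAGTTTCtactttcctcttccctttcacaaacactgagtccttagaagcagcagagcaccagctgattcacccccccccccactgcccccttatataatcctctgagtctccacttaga
Isg15, chr4:156200819-156200988, minus strand: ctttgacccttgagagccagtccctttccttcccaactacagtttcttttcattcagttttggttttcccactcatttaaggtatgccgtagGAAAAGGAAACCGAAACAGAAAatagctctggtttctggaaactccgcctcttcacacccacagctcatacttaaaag
Slfn4, chr11:83175016-83175185, plus strand: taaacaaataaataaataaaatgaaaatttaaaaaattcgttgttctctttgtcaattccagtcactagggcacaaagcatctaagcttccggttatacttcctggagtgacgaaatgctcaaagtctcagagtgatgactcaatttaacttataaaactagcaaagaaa
Oasl1, chr5:114923070-114923239, plus strand: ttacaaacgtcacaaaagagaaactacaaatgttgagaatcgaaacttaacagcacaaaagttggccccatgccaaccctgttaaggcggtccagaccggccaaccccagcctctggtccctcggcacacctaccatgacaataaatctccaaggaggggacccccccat

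The motif lay in the promoters of Rsad2, Ifit1, Ifit3 and Isg15, 4 of the 5 gating genes. Ifit1 and Ifit3 each held 2 separate matches, and Isg15 held 3 that overlap in 1 stretch of 22 bases. Slfn4 and Oasl1 had no match in the 300-base promoters searched. Over all 27025 genes with a promoter in the table, 1079 held the motif (3.99%). A match describes letters only and is no measure of binding.

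The first question was how large this population was in each library. Members made up 8.35% of the 2672 calprotectin-high cells in the high-B12 library (7.32 to 9.46%, exact binomial) and 4.46% of the 942 in the low-B12 library (3.23 to 5.98%), a 1.87-fold ratio. Of calprotectin-high cells that met the granule limit, here called low-granule cells, they were 11.6% of 1929 (10.2 to 13.1%) in the high-B12 library and 6.19% of 679 (4.49 to 8.27%) in the low-B12 library. Of all cells they were 3.30% in the high-B12 library and 0.645% in the low-B12 library, where calprotectin-high cells were also a smaller share of all cells.

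The gate counts UMIs, so depth is given beside these shares. Members had a median of 3443 UMIs and 1252 genes in the high-B12 library and 2861.5 UMIs and 1187.5 genes in the low-B12 library. Other low-granule cells had 3063 UMIs in the high-B12 library and 2689 in the low-B12 library. With every cell thinned to 1000 UMIs, shallower cells left out (15 and 5 low-granule cells), 11.6% of low-granule cells in the high-B12 library (10.2 to 13.1%) and 8.16% in the low-B12 library (6.21 to 10.5%) held 2 or more gating-gene UMIs. At 5 or more UMIs after thinning, the shares of all calprotectin-high cells were 1.66% in the high-B12 library and 1.39% in the low-B12 library. In thinned cells the shares of both libraries lay closer together, and the intervals at 2 or more UMIs overlapped. Thinning also changed how strict the UMI limit was, so the part of depth in the difference between libraries was not tested.

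Gating-gene UMIs fell off continuously, with no gap at the threshold. Just inside it, 58 low-granule cells in the high-B12 library and 10 in the low-B12 library had exactly 5 such UMIs. Just outside it, 62 in the high-B12 library and 15 in the low-B12 library had 4. Most members lay near the threshold: 138 of 223 in the high-B12 library and 25 of 42 in the low-B12 library had 5 to 9 UMIs. At least 20 UMIs were found in 26 of 223 members of the high-B12 library and in 8 of 42 of the low-B12 library, and the highest cell had 58 UMIs in the high-B12 library and 33 in the low-B12 library.

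**Figure D1:**
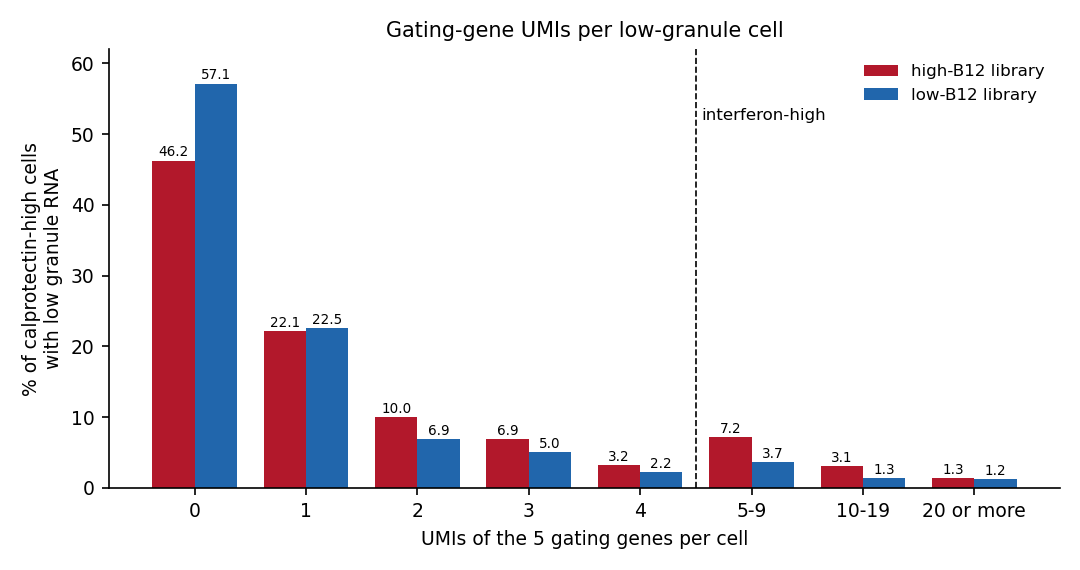
Share of low-granule calprotectin-high cells (vertical axis, %) by the UMIs of the 5 gating genes in a cell (horizontal axis), with the high-B12 library (1929 cells) in red and the low-B12 library (679 cells) in blue. Cells right of the dashed line are interferon-high, and the bars fall on both sides of it without a gap.

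Among the gating genes, Slfn4, a Schlafen family gene of myeloid cells, supplied the most UMIs. It stood at 914 CPM (the gene's summed UMIs per 1000000 UMIs of the group) in members and 155 CPM in other low-granule cells of the high-B12 library, and at 981 against 126 CPM in the low-B12 library. Rsad2, which encodes the antiviral enzyme viperin, stood at 529 CPM in members against 30.3 CPM in the high-B12 library and at 780 against 29.5 CPM in the low-B12 library. Isg15, a ubiquitin-like modifier, stood at 573 against 53.9 CPM in the high-B12 library and at 562 against 35.9 CPM in the low-B12 library. Slfn4 thus had the smallest contrast of the gating genes. In barcodes under 100 UMIs, which hold free RNA, it stood at 189 CPM in the high-B12 library and 43.9 CPM in the low-B12 library. The part of free RNA in the Slfn4 of other low-granule cells was not tested.

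Ifit3 and Ifit1, which encode proteins that hold back viral RNA translation, gave a sharper contrast. Ifit3 stood at 261 CPM in members against 3.93 CPM in the high-B12 library and at 201 against 2.46 CPM in the low-B12 library. Ifit1 stood at 149 against 6.16 CPM in the high-B12 library and at 224 against 6.89 CPM in the low-B12 library. Ifit3b, a near-identical copy of Ifit3 whose reads the counting could split, was at 127 CPM in members of the high-B12 library and 109 CPM in those of the low-B12 library. Oasl1 stood at 200 against 33.0 CPM in the high-B12 library and at 258 against 23.6 CPM in the low-B12 library. Oasl1 was thus higher in members of both libraries without having been used to choose them.

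**Figure D2:**
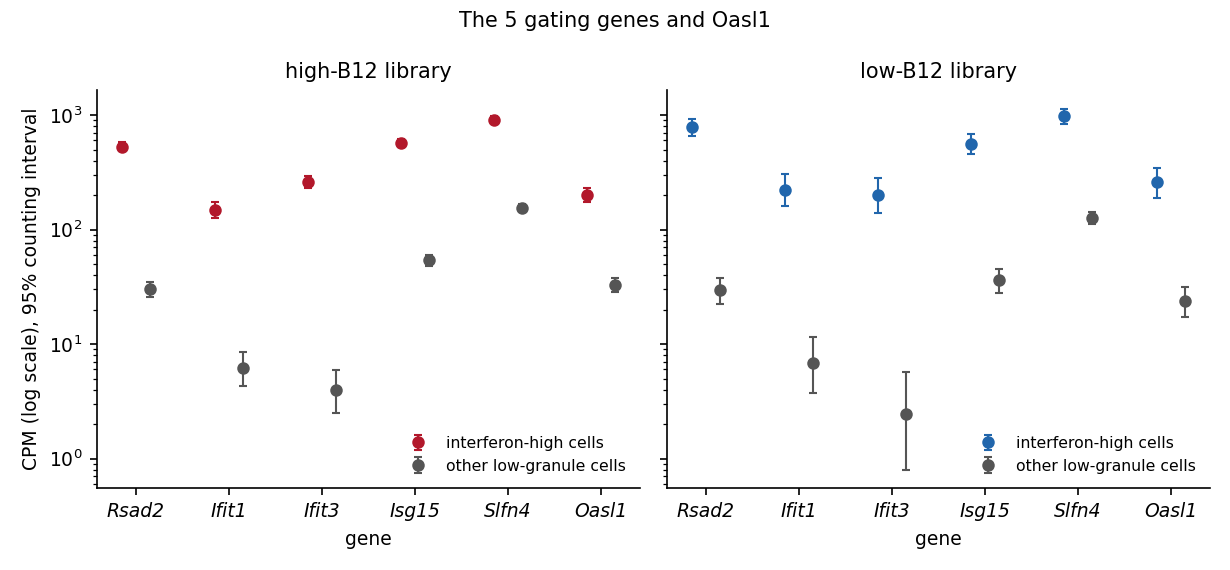
CPM on a log axis of the 5 gating genes and Oasl1 in interferon-high cells (coloured, 223 and 42 cells) and in other low-granule cells (grey, 1706 and 637 cells), high-B12 library in the left panel and low-B12 library in the right. Bars are 95% counting intervals, and every gene is higher in interferon-high cells, which the choice of cells fixed for the 5 gating genes.

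The gate sums the UMIs of 5 genes, so how many of them a member carried is partly fixed by it and is given as a description. At least 3 of the 5 gating genes were detected in 136 of 223 members (61.0%) of the high-B12 library and in 24 of 42 (57.1%) of the low-B12 library. Slfn4 was the only gating gene detected in 16 members of the high-B12 library and 3 of the low-B12 library. Rsad2 had a UMI in 153 and Isg15 in 156 members of the high-B12 library, and in 30 and 29 members of the low-B12 library. Without Slfn4 in the gate, 108 cells of the high-B12 library (4.04% of calprotectin-high cells) and 27 of the low-B12 library (2.87%) reached 5 UMIs.

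The neutrophil label was checked against genes that the gate did not use. Csf3r, the receptor gene for granulocyte colony-stimulating factor, had a UMI in 222 of 223 members of the high-B12 library and in 42 of 42 of the low-B12 library. In cells with B cell markers, which should lack it, the share was 6.95% (4.99 to 9.38%) in the high-B12 library and 3.99% (3.05 to 5.12%) in the low-B12 library, at higher median depths of 5919 and 5619 UMIs. Cxcr2, the chemokine receptor gene of mature neutrophils, was at 964 CPM in members and 989 CPM in other low-granule cells of the high-B12 library, and at 958 against 1055 CPM in the low-B12 library. Retnlg, a resistin-like gene of mature neutrophils, was at 9569 against 10933 CPM in the high-B12 library and at 6363 against 7788 CPM in the low-B12 library. Members were thus close to other low-granule cells in these genes. Cells with monocyte markers were not compared here, so this check does not separate members from monocytes.

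Markers of other cell types were also present, and those of dendritic cells lay mainly in a few very deep cells. Of the members, 16 in the high-B12 library and 3 in the low-B12 library had over 10000 UMIs, and these held 24.1% and 34.1% of all members' UMIs in their library. A single cell held 16.4% of members' UMIs in the low-B12 library. The 12 dendritic cell markers summed to 1955 CPM in members and 633 CPM in other low-granule cells of the high-B12 library, but to 189 and 365 CPM without deep cells. In the low-B12 library they summed to 4194 and 837 CPM, and to 261 and 478 CPM without deep cells. Siglech and Xcr1, which mark plasmacytoid and cross-presenting dendritic cells, were at 0 in members of both libraries. Siglech was also at 0 in other low-granule cells of both libraries, and Xcr1 in those of the low-B12 library. These zeros are thus not particular to members.

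The 12 monocyte markers summed to 815 CPM in members and 447 CPM in other low-granule cells of the high-B12 library, and to 1056 and 682 CPM in the low-B12 library. Without deep cells these sums were 477 and 384 CPM in the high-B12 library and 514 and 476 CPM in the low-B12 library. The 10 B cell markers summed to 336 CPM in members and 480 CPM in other low-granule cells of the high-B12 library, and to 1038 and 734 CPM in the low-B12 library, where 80.7% of the members' UMIs of these markers lay in 1 cell. Without deep cells they summed to 243 and 394 CPM in the high-B12 library and 252 and 586 CPM in the low-B12 library. The 10 macrophage markers kept their direction without deep cells. Their sums were then 294 CPM in members against 183 CPM in other low-granule cells (high B12), and 218 against 263 CPM (low B12). With all cells, 1 cell held 29.9% of the high-B12 members' UMIs of these markers, and 1 held 21.4% of the low-B12 members'. The higher sum in high-B12 members thus rested in part on 1 cell, and the sum without that cell was not tested. The 10 erythroid and platelet markers summed to 57.9 and 16.1 CPM in the high-B12 library and to 5.74 and 26.6 CPM in the low-B12 library, and 78.0% of the high-B12 members' UMIs lay in 1 cell. The 12 T and NK cell markers summed to 271 and 236 CPM in the high-B12 library, where 1 cell held 31.5% of the members' UMIs. In the low-B12 library they summed to 28.7 CPM in members, from few UMIs, and 251 CPM in other low-granule cells. Without deep cells they summed to 154 and 211 CPM in the high-B12 library and to 43.5 and 238 CPM in the low-B12 library. The part of these cell types in the differences between members and other cells was not tested. Scrublet called 10 members of the high-B12 library and 3 of the low-B12 library as doublets, and doublets were kept. The part of deep cells in each comparison is given by its value without them. The libraries shared 4 cell barcodes, none of them of a member.

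The next comparison set members against the other calprotectin-high cells of the same library, 2449 high-B12 and 900 low-B12 cells. Of these, 743 and 263 were cells with granule RNA, which had medians of 12069 and 12111 UMIs and held most of the UMIs of this group. Of 7169 measured genes (at least 50 UMIs over both groups in each library, gating genes left out), 1267 (17.7%) were past 1.5-fold higher in members of both libraries and 533 (7.43%) past 1.5-fold lower. The median of all measured genes was a log2 ratio of 0.31 in the high-B12 library and 0.27 in the low-B12 library. Against the 1706 and 637 low-granule cells alone, 208 of 4419 genes (4.71%) were past 1.5-fold higher in both libraries and 27 (0.611%) lower. With cells over 10000 UMIs also left out of both groups, 74 of 3990 (1.85%) were higher and 37 (0.927%) lower.

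Type I interferon effector genes, the antiviral and signalling products downstream of the receptor, stood out in each of these settings. The list had 45 genes in the files, none of them a gating gene, and 32 were measured against all other calprotectin-high cells. Of those, 29 were past 1.5-fold higher in both libraries, with a median log2 ratio of 1.97 in the high-B12 library and 2.17 in the low-B12 library. Against low-granule cells, 15 of 21 measured were higher, with medians of 1.21 and 1.63, beside 0.02 and 0.00 for all measured genes. Without deep cells 17 of 21 were higher, with medians of 1.29 and 1.69. The members had been chosen by genes of the same response, so these counts describe the gate and support nothing further.

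Oas family genes were among the highest. Oasl2, an Oas-like gene, was at 449 CPM in members and 65.5 CPM in other calprotectin-high cells of the high-B12 library, 6.85-fold (6.12 to 7.66), and at 482 against 54.6 CPM in the low-B12 library, 8.83-fold (6.86 to 11.3). Oas3, which encodes an oligoadenylate synthetase, was higher by 5.20-fold in the high-B12 library (152 against 29.2 CPM) and 6.90-fold in the low-B12 library (161 against 23.3 CPM). Oasl1 was higher by 11.8-fold in the high-B12 library and 26.2-fold in the low-B12 library. Herc6, the mouse ligase gene for Isg15, was 9.81-fold higher in high-B12 (104 against 10.6 CPM) and 8.12-fold in low-B12 cells (109 against 13.4 CPM). Rnf213, Trim30a and Trafd1 were also named by the rule, at 3.97-fold to 4.97-fold across both libraries. All these folds are against all other calprotectin-high cells, most of whose UMIs came from cells with granule RNA. Against other low-granule cells, both without deep cells, the contrasts were smaller. Oasl2 was then at 534 against 157 CPM in the high-B12 library and at 653 against 142 CPM in the low-B12 library. Oas3 was at 180 against 45.8 CPM and at 192 against 39.8 CPM. Reads of Oas family copies can be split by counting, so values of single members are uncertain.

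Other effector genes named by the rule or most abundant in the list follow. Isg20, an exonuclease gene, stood at 121 against 24.4 CPM in the high-B12 library and at 132 against 14.8 CPM in the low-B12 library, 4.95-fold and 8.92-fold. Rtp4, a negative regulator of the response, was higher by 7.33-fold in the high-B12 library (246 against 33.5 CPM) and 10.0-fold in the low-B12 library (201 against 20.1 CPM). Ifi27l2a, a mitochondrial and nuclear envelope protein gene, was at 1818 against 386 CPM in the high-B12 library and 1067 against 231 CPM in the low-B12 library, 4.72-fold and 4.62-fold. These folds are against all other calprotectin-high cells. Against other low-granule cells, both without deep cells, Isg20 was at 149 against 46.4 CPM (high B12) and 192 against 30.1 CPM (low B12). Rtp4 was then at 291 against 72.8 CPM and at 279 against 47.9 CPM. Ifi27l2a was at 1948 against 727 CPM and at 984 against 317 CPM. Ifitm3, which restricts viral entry, was at 1758 CPM in members and 762 CPM in other low-granule cells of the high-B12 library, and at 1733 against 561 CPM in the low-B12 library.

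The Ifitm family did not differ as a block. Ifitm2 stood at 2330 CPM in members and 2709 CPM in other low-granule cells of the high-B12 library, and at 1911 against 2158 CPM in the low-B12 library. Ifitm1 stood at 2024 against 2285 CPM in the high-B12 library and at 924 against 1710 CPM in the low-B12 library. Ifitm6 stood at 411 against 284 CPM in the high-B12 library and at 252 against 198 CPM in the low-B12 library. Without deep cells its direction turned in the low-B12 library (360 against 267 CPM with high B12, 104 against 199 CPM with low B12). In that setting Ifitm1, Ifitm2, Ifitm6 and Trim25 were the 4 measured effector genes not past 1.5-fold higher in both libraries, and they are named here after their values were seen. Ifitm3 was thus the measured family member past 1.5-fold in both libraries.

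**Figure D3:**
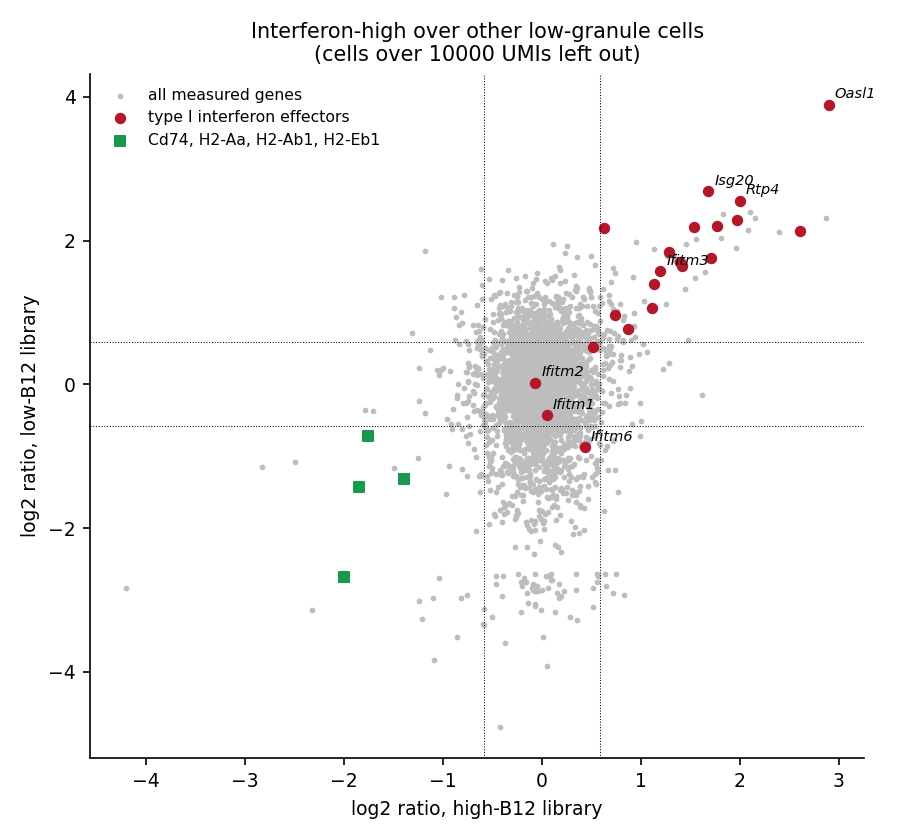
Log2 ratio of CPM, interferon-high over other low-granule cells without cells over 10000 UMIs, in the high-B12 library (horizontal axis) and the low-B12 library (vertical axis). Points are the 3990 measured genes (grey), the 21 measured type I interferon effectors (red) and 4 MHC class II genes (green squares), dotted lines mark 1.5-fold, and 17 of the red points lie beyond it in both libraries.

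The Schlafen, GTPase and HIN200 families take part in antiviral and intracellular defence. Slfn5 came first when measured genes at 100 CPM or more were ranked by the lower of their 2 library ratios. It stood at 189 CPM in members and 12.9 CPM in other calprotectin-high cells of the high-B12 library (14.6-fold) and at 195 against 13.9 CPM in the low-B12 library (14.0-fold). Slfn1 was at 675 CPM in members and 450 CPM in other low-granule cells of the high-B12 library, and at 482 against 375 CPM in the low-B12 library. Slfn2 was at 1029 against 881 CPM and at 1056 against 788 CPM. Against all other calprotectin-high cells, the 4 measured Schlafen genes, 5 GTPase genes and 5 HIN200 genes were all past 1.5-fold higher in both libraries, beside 17.7% of all measured genes. Against low-granule cells, where 4.71% of measured genes passed, 1 of 3 measured Schlafen genes, 3 of 3 GTPase genes and 1 of 1 HIN200 gene did. Schlafen genes lie in a cluster of similar copies, so their single values are uncertain.

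Among guanylate-binding and HIN200 genes, Gbp2 stood at 83.5 CPM in members and 24.1 CPM in other low-granule cells of the high-B12 library, and at 103 against 24.1 CPM in the low-B12 library. Irgm1, an immunity-related GTPase gene, stood at 66.8 against 9.75 CPM and at 63.1 against 8.37 CPM. Ifi204, a DNA-binding HIN200 gene, was 7.53-fold higher than in all other calprotectin-high cells of the high-B12 library (180 against 23.9 CPM) and 8.79-fold in the low-B12 library (212 against 24.1 CPM). Against other low-granule cells, both without deep cells, Ifi204 was at 206 against 48.0 CPM (high B12) and 218 against 42.0 CPM (low B12). Mndal and Ifi203, of the same family, depended on deep cells. Without those, Mndal was at 10.4 CPM in members and 9.53 CPM in other low-granule cells of the high-B12 library, and at 8.71 against 15.6 CPM in the low-B12 library.

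Signalling genes split between the receptor and its downstream factors. Ifnar1 stood at 64.8 CPM in members and 48.2 CPM in other low-granule cells of the high-B12 library, and at 28.7 against 57.6 CPM in the low-B12 library. Its level in low-B12 members rested on few UMIs and is uncertain. Ifnar2 stood at 130 and 129 CPM in the high-B12 library and at 126 against 114 CPM in the low-B12 library. Jak1, a receptor kinase gene, stood at 399 CPM in both groups of the high-B12 library and at 356 against 435 CPM in the low-B12 library. The receptor and kinase genes thus had no shared direction of more than 1.5-fold.

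Irf9, which encodes the DNA-binding subunit of the complex, was at 127 CPM in members and 61.2 CPM in other low-granule cells of the high-B12 library, and at 120 against 47.2 CPM in the low-B12 library. Irf7, which drives later interferon production, was at 223 against 48.9 CPM in the high-B12 library and at 115 against 32.0 CPM in the low-B12 library. Without deep cells, 4 of 17 measured sensing and feedback genes, Irf9, Irf7 and Usp25 among them, were past 1.5-fold higher in both libraries, beside 1.85% of all measured genes, and none was lower. Usp18, which removes Isg15 from proteins and dampens the receptor, had few UMIs, 47.1 against 6.33 CPM in the high-B12 library and 34.4 against 3.94 CPM in the low-B12 library. Stat2 was at 44.2 against 17.6 CPM in the high-B12 library and at 91.8 against 10.8 CPM in the low-B12 library.

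Among nucleic acid sensors, the RNA helicase genes were the ones past 1.5-fold. Ddx58, which encodes RIG-I, was at 123 CPM in members and 47.0 CPM in other low-granule cells of the high-B12 library, and at 115 against 34.4 CPM in the low-B12 library. Ifih1, which encodes MDA5, was at 80.5 against 28.7 CPM and at 126 against 25.1 CPM, and Ddx60, a helicase gene that promotes RIG-I signalling, at 321 against 109 CPM and at 264 against 85.1 CPM. Aim2, a DNA sensor gene, was at 92.3 against 96.1 CPM in the high-B12 library and at 149 against 111 CPM in the low-B12 library. Myd88, the adaptor gene of toll-like receptors, was at 140 against 173 CPM and at 178 against 184 CPM. Without deep cells, Ddx58, Ifih1 and Ddx60 were the 3 of 7 measured sensor genes past 1.5-fold higher in both libraries, beside 1.85% of all measured genes. Against all other calprotectin-high cells 7 of 10 were, beside 17.7%.

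Antigen presentation genes divided by class. H2-D1, a class I heavy chain gene, was at 2749 CPM in members and 2508 CPM in other low-granule cells of the high-B12 library, and at 2157 against 2172 CPM in the low-B12 library. H2-T23, a nonclassical class I gene, was at 354 against 213 CPM and at 333 against 194 CPM. Without deep cells, 4 of 14 measured class I and peptide loading genes were past 1.5-fold higher in both libraries (H2-T23, Tap1, Psme1 and Psme2), beside 1.85% of all measured genes, and none was lower. Class II genes depended on the deep cells. Cd74, the invariant chain gene, was at 1302 against 411 CPM in the high-B12 library and at 2846 against 553 CPM in the low-B12 library with all cells. Without deep cells it was at 85.4 against 226 CPM and at 113 against 294 CPM, so its direction turned, and H2-Aa, H2-Ab1 and H2-Eb1 turned likewise. A single cell held 47.1% of the Cd74 UMIs of members in the high-B12 library and 56.5% in the low-B12 library.

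Of the 74 genes past 1.5-fold higher against low-granule cells without deep cells, 32 were in the 8 interferon-related lists, which held 68 of the 3990 measured genes. Of the 37 lower genes, 4 (10.8%) were in the same lists, beside 1.70% of measured genes. Of the 74 genes, 63 had a promoter in the RefSeq table, and 18 of those held the response element motif (28.6%), against 252 of 5727 genes measured against all calprotectin-high cells (4.40%) and 1 of 28 lower genes (3.57%). These 18 included Ddx58, Ddx60, Gbp2, Ifih1, Ifitm3, Oas3 and Trim30a. The 4.40% comes from the 7169 genes measured in the other comparison, not from the 3990 genes. Members had been chosen by genes of the same response, 4 of the 5 with this motif. These list and motif shares thus describe the gate and support nothing further.

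Genes of neutrophil maturation and inflammation did not differ in this way. Of 26 measured mature neutrophil genes, none was past 1.5-fold higher against low-granule cells without deep cells and 1 was lower, with medians of −0.01 in the high-B12 library and −0.05 in the low-B12 library. Of 17 inflammatory cytokine and NF-kB feedback genes, none was past 1.5-fold in either direction, with medians of 0.06 and 0.09. Il1b, the interleukin-1 beta gene, was at 3674 CPM in members and 3856 CPM in other low-granule cells of the high-B12 library, and at 3695 against 4792 CPM in the low-B12 library. Cxcl2, a neutrophil chemoattractant gene, was at 1526 against 1940 CPM and at 1388 against 1486 CPM. Cxcr4, whose product marks aged neutrophils, was at 309 against 327 CPM in the high-B12 library and at 488 against 458 CPM in the low-B12 library.

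The 15 genes named as lower than in all other calprotectin-high cells included the granule and precursor genes Fcnb, Elane, Prtn3, Camp, Ngp, Ltf and Chil3, with Orm1, Hist1h2ae, Stmn1, Serpinb1a, Mgst2, Zmpste24, Cebpe and Lta4h. Fcnb, a ficolin gene of immature neutrophils, was at 0.982 CPM in members and 293 CPM in other calprotectin-high cells of the high-B12 library, and had no UMI in members against 345 CPM in the low-B12 library. Chil3, a chitinase-like gene, was at 97.2 against 2660 CPM and at 22.9 against 2566 CPM. Camp, Ngp and Ltf are part of the gate, and it removed granule RNA from members but not from this comparator. Against other low-granule cells, Chil3 was at 97.2 against 34.6 CPM in the high-B12 library and at 22.9 against 26.1 CPM in the low-B12 library, and Camp at 428 against 131 CPM and at 97.5 against 132 CPM.

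Interferon effector RNA also varied among low-granule cells with their gating-gene UMIs, below the threshold too. Without deep cells, the 45 effector genes together stood at 7733 CPM in high-B12 cells with 0 gating-gene UMIs, at 8245 with 1 to 2, at 9655 with 3 to 4, at 11089 with 5 to 9, at 14610 with 10 to 19 and at 19806 with 20 or more. In the low-B12 library these levels were 6005, 6706, 8382, 8605, 14550 and 15667 CPM. The highest classes held 55 and 24 cells in the high-B12 library but only 8 and 7 in the low-B12 library. Median depth was 2955 to 3474 UMIs over the high-B12 classes and 2541.5 to 3036 over the low-B12 classes. The effector CPM was thus higher in each class than in the one before it, in both libraries, while Il1b showed no such order. With cells thinned to 1000 UMIs, the mean effector UMIs per cell kept that order in the high-B12 library, with 16.2 at 10 to 19 gating-gene UMIs and 20.5 at 20 or more. In the low-B12 library the 2 highest classes were at 14.9 and 14.1, out of order.

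Slfn5 and Oasl1 are given as single genes. Slfn5 stood at 8.76 CPM in high-B12 cells with 0 gating-gene UMIs, at 93.3 CPM with 5 to 9, at 196 CPM with 10 to 19 and at 726 CPM with 20 or more. In low-B12 cells it stood at 8.16, 130, 90.7 and 472 CPM, so its class of 10 to 19 was out of order there. Oasl1 stood at 24.5, 160, 322 and 532 CPM in high-B12 cells and at 18.1, 216, 544 and 687 CPM in low-B12 cells. These are levels across cells of 1 library each, which share its free RNA and preparation.

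**Figure D4:**
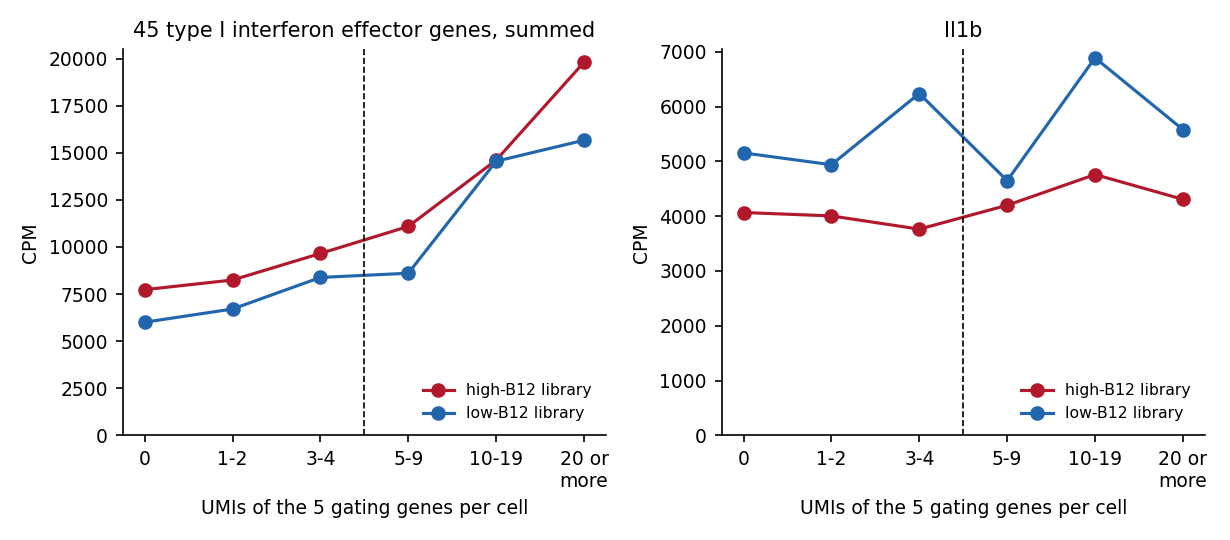
CPM of 45 type I interferon effector genes together (left) and of Il1b (right) in low-granule calprotectin-high cells by gating-gene UMIs, without cells over 10000 UMIs, high-B12 library in red and low-B12 library in blue. The dashed line marks the gate, and the effector level runs from 7733 to 19806 CPM over the high-B12 classes and from 6005 to 15667 CPM over the low-B12 classes.

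The same RNA was looked for in cells outside the gate and in empty droplets. B cells, taken by at least 5 UMIs of the B cell markers and at most 1 of each other type's, should carry little of it, and 0.891% of 561 in the high-B12 library (0.290 to 2.07%) and 0.406% of 1479 in the low-B12 library (0.149 to 0.881%) had 5 or more gating-gene UMIs, at medians of 5919 and 5619 UMIs. Cells with monocyte markers reached 7.39% in the high-B12 library and 4.23% in the low-B12 library. Calprotectin-high cells with granule RNA reached 17.8% and 11.8%, at 12069 and 12111 median UMIs, and without Slfn4 3.23% and 1.14%. Without Slfn4, cells with monocyte markers reached 6.78% in the high-B12 library and 3.92% in the low-B12 library, at medians of 9128.5 and 8046 UMIs, beside 5.599% and 3.98% of low-granule cells at 3085 and 2710 UMIs. Their effector genes summed to 10722 CPM in the high-B12 library and 8428 CPM in the low-B12 library, above all low-granule cells together (8692 and 6481 CPM). The effector sum of barcodes under 100 UMIs was 6583 CPM in the high-B12 library and 5615 CPM in the low-B12 library. Such barcodes, which hold free RNA, had the gating genes at 308 CPM in the high-B12 library and 115 CPM in the low-B12 library. Of that, Slfn4 made up 189 CPM in the high-B12 library and 43.9 CPM in the low-B12 library. Other low-granule cells had Slfn4 at 155 and 126 CPM, and the part of free RNA in the difference between libraries was not tested.

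Thinned to 1000 UMIs, low-granule cells stood above each of the other classes in gating-gene UMIs with Slfn4 included. The share with 2 or more gating-gene UMIs was 11.6% in the high-B12 library and 8.16% in the low-B12 library among them. It was 4.76% and 1.92% in cells with granule RNA, 2.70% and 1.91% with monocyte markers, 0.707% and 1.67% with NK cell markers, and 0.537% and 0.136% with B cell markers. The B cell share, the background of this measure, was below that of low-granule cells by more than the intervals.

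**Figure D5:**
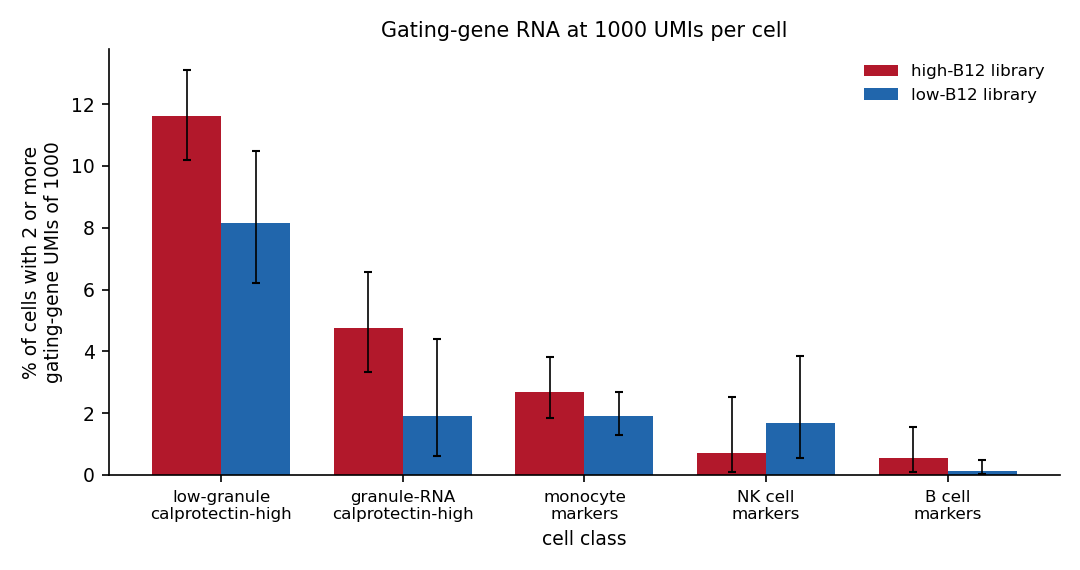
Share of cells (%) with 2 or more gating-gene UMIs after thinning each cell to 1000 UMIs, by cell class, with the high-B12 library in red left of the low-B12 library in blue. Bars are exact 95% binomial intervals, and low-granule calprotectin-high cells have the highest share in both libraries, at 11.6% and 8.16%.

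Interferon genes themselves were not detected in members apart from Ifng. Of the 16 type I and type III ligand genes in the list, 13 had no UMI in any cell of either library, and Ifnb1, Ifna4 and Ifnk were not found in members. Ifnb1 had 2 UMIs in 2 cells of the high-B12 library and 12 UMIs in 3 cells of the low-B12 library. A count of 0 in members allows up to 2.95 CPM in the high-B12 library and 17.2 CPM in the low-B12 library (3 UMIs). Ifng, the interferon gamma gene of NK and T cells, had 12 UMIs in members of the high-B12 library and 0 in those of the low-B12 library. Over all cells, Ifng had 1634 UMIs in 518 cells of the high-B12 library and 1530 UMIs in 543 cells of the low-B12 library.

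The last comparison set members of the high-B12 library (223 cells, 1018267 UMIs) against those of the low-B12 library (42 cells, 174297 UMIs). Of 3016 measured genes with at least 50 UMIs over both, 248 (8.22%) were past 1.5-fold higher in high-B12 members and 434 (14.4%) lower, with a median log2 ratio of −0.10 over all genes. Of the 31 measured effector genes, 6 were higher past 1.5-fold and 5 lower, with a median of −0.10, the same as that of all genes. The genes of the list thus had no shared direction between the libraries (15 of 31 were higher with high B12), and the sign of this median turned under 4 of the alternative settings. The 45 effector genes summed together were at 12002 CPM in high-B12 members and 9983 CPM in low-B12 members, and at 13167 and 11180 CPM without deep cells. In other low-granule cells that sum was 8116 CPM with high B12 and 6181 CPM with low B12. In other low-granule cells, 4 of 32 effector genes were past 1.5-fold higher with high B12 and none lower, beside 2.43% and 11.7% of 7078 genes, with a median of 0.09 against −0.16 for all genes.

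Levels of single interferon genes follow, and the 5 effector genes counted as lower with high B12 are not among them. Ifi27l2a was at 1818 CPM in high-B12 members and 1067 CPM in low-B12 members, a 1.70-fold ratio (1.46 to 1.99), and 736 and 312 CPM in other low-granule cells. Irf7, of the sensing and feedback genes, was at 223 and 115 CPM, a 1.94-fold ratio (1.23 to 3.24). Ifitm1 was at 2024 and 924 CPM, a 2.19-fold ratio (1.87 to 2.59), and also higher in other low-granule cells of the high-B12 library, at 2285 against 1710 CPM. The gating genes Rsad2 (529 and 780 CPM) and Isg15 (573 and 562 CPM) chose the members and are given as a description. Oasl2 (449 and 482 CPM) and Ifitm3 (1758 and 1733 CPM) had intervals that include a ratio of 1.

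Many of the genes that the rule named in this comparison had few UMIs in low-B12 members or had most of them in 1 cell. Gzma, a granzyme gene of NK cells, had 136 UMIs in 6 high-B12 members and 0 UMIs in low-B12 members. Ccl5, a chemokine gene, was at 206 CPM in 26 high-B12 members and at 22.9 CPM (4 UMIs) in 2 low-B12 members, and 31.4% of the high-B12 UMIs lay in 1 cell. Ltf and Camp belong to the granule limit that chose the members. Srsf11, Kdm5b, Hist1h2ap, Hist1h1e and Vmp1 were also named as higher, with 5 to 11 UMIs in low-B12 members. Vmp1, an autophagy gene, was at 171 and 63.1 CPM, a 2.71-fold ratio (1.48 to 5.52) that was 1.13-fold in other low-granule cells.

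Genes named as lower in high-B12 members included Ebf1, a B cell factor gene, at 28.5 CPM in high-B12 members and 218 CPM in low-B12 members, with 94.7% of the low-B12 UMIs in 1 cell. H2-Eb1 was at 501 and 1492 CPM, with 61.9% of the low-B12 UMIs in 1 cell, and Ifi30, a lysosomal reductase gene, at 74.6 and 321 CPM with all low-B12 UMIs in 3 cells. Olr1, Man1a, Snrpf, Ccr2 and Hspe1 also had 57.1 to 78.6% of their low-B12 UMIs in 1 cell, and Glul had 40.9%. Cdc40, a splicing factor gene whose low-B12 UMIs lay in 13 cells, was at 41.2 CPM in high-B12 members and 115 CPM in low-B12 members, a ratio of 0.36 (0.21 to 0.65).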

How the data were processed

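The deposited values were raw UMI counts per gene and barcode. Per the file headers they came from Cell Ranger 4, while the submitters' processing notes name version 2.1.1. The kit was 10x 3′ v2 per the labels' protocols, and the genome build is not given in the sources used here. Libraries held 46994991 UMIs (High B12) and 48884220 UMIs (Low B12).

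A barcode counted as a cell from 500 UMIs and 200 genes, with mitochondrial UMIs of 10% or less. Doublets were called with Scrublet (scanpy 1.11.5) and kept, with removal as an alternative. UMIs were summed over cells of a group and given as CPM, with exact binomial intervals for shares and exact conditional binomial intervals for ratios, and 0.5 UMI added for log2 ratios (Python 3.11.15, NumPy 2.4.6, SciPy 1.17.1, pandas 2.3.3, matplotlib 3.10.9). Scripts were checked on simulated counts. No test was run, since each condition has 1 library.

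Members and gene lists were chosen with earlier results of these data known. Named genes were the gating genes, Oasl1, up to 15 genes each way at 100 CPM or more whose ratio intervals excluded 1.25 in both libraries, up to 10 each way between libraries, and up to 6 members of a list with most UMIs. Alternatives changed the thresholds, scaling, minimum UMIs, depth, doublets and comparison cells. Leaving out cells over 10000 UMIs, dropping Slfn4 from the gate and the limit of 2 UMIs after thinning were chosen after seeing the data. Other genes named outside the rule were chosen after their values were seen. Some results that the rule names are not reported here.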

Additional observations from a re-analysis of the deposited data

Results flagged for a closer look

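Ccl5, a chemokine gene, lay on opposite sides of other low-granule cells in the libraries. Its log2 ratio, interferon-high over other low-granule cells, was 0.68 in the high-B12 library and −2.57 in the low-B12 library. It had 210 UMIs in 26 members of the high-B12 library, 31.4% of them in 1 cell, and 4 UMIs in 2 members of the low-B12 library. The difference was not tested, because each condition has 1 library.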

How the results depend on the processing

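Shares of calprotectin-high cells were 15.6% (high B12) and 9.66% (low B12) with 3 gating UMIs, 3.18% and 1.80% with 10, and 1.66% and 1.39% with 5 after thinning. They were 4.04% and 2.87% without Slfn4, 11.6% and 6.19% of low-granule cells, and 3.30% and 0.645% of all cells. The high-B12 share was 5.05% with gating genes at 0.2% of UMIs and 6.89% with calprotectin at 10%, and the low-B12 share was 5.98% at 2 UMIs after thinning. The high-B12 share was the higher one in each.

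Genes higher and lower in members than in other calprotectin-high cells numbered 501 and 840 when scaled by the median ratio, 710 and 217 at 200 UMIs per gene, 126 and 54 after thinning, 208 and 27 against low-granule cells, and 159 and 144 without cells over 10000 UMIs. The higher ones numbered 1974 at 10 UMIs per gene and 334 with cells weighted equally. The effector median was 1.24 (high B12) and 1.01 (low B12) at 200 UMIs per gene and 1.07 and 1.35 after thinning. In the high-B12 library it was 2.29 with 10 gating UMIs, 1.21 against low-granule cells and 2.26 without Slfn4, and in the low-B12 library 2.47 without doublets.

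Between libraries, genes higher and lower in high-B12 members numbered 1048 and 1811 at 10 UMIs per gene, 31 and 64 at 200, and 73 and 121 after thinning, with 244 lower at 10 gating UMIs. The effector median turned positive when scaled by the median ratio (0.0026), at 200 UMIs per gene (0.035), at 10 gating UMIs (0.095) and at the same mix of gating-UMI classes (0.048). The cause of these changes was not tested.

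No paired analysis was possible because each condition has 1 library. The low-B12 members were 42 cells with 174297 UMIs, so a count of 0 there allows up to 17.2 CPM, and 1 cell held 16.4% of those UMIs. Free RNA, depth and library cannot be told apart from the B12 label in any difference between libraries.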

Other observations

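Tet2, the gene in the title of the series, stood at 130 CPM in members and 103 CPM in other low-granule cells of the high-B12 library, and at 120 against 134 CPM in the low-B12 library. A count of 3′ reads does not check a deletion, since the deleted part is not given in the labels. Mtr, which encodes the B12-dependent methionine synthase, had 3 UMIs in members of the high-B12 library and 2 in those of the low-B12 library.

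C1qb, a complement gene of tissue macrophages, had 46 UMIs in 3 members of the high-B12 library, 82.6% of them in 1 cell, and none in members of the low-B12 library. C1qa had 24 UMIs in 3 high-B12 members and none in low-B12 members.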
